A study of Mus musculus with 56 samples.

Results

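The Ly6 family genes described here are Ly6d, Ly6a, Ly6c1, Ly6c2, Ly6e, Ly6h and Ly6k, 7 of the 21888 gene symbols in an RNA-seq table of 14 mouse livers. They were chosen by the large rise of Ly6d at day 45, a value measured in these livers, so the day 45 levels of every member and all levels of Ly6d relative to day 0 are given as a description without a test. The mice carried loxP sites around miR-122, the dominant microRNA of hepatocytes, and 129Sv/J is their labelled strain background. Livers were taken from uninjected floxed mice (day 0, n = 3) and at day 21 (n = 3), day 45 (n = 3), day 100 (n = 1) and day 200 (n = 1) after a tail vein injection of rAAV that expressed Cre from the Ef1a promoter. That promoter is active in many cell types. The livers of days 100 and 200 were treated as 1 group of 2. The remaining group is germline miR-122 knockout mice (n = 3, also labelled 129Sv/J), for which the labels name no vector. Each library is 1 liver, and age and sex are not in the labels. Vector, Cre and loss of miR-122 cannot be told apart in the injected mice, because the controls were uninjected. The knockout mice are a separate line, so genotype and colony cannot be told apart either.

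Ly6 proteins are small, disulfide-rich proteins of the Ly6/uPAR superfamily that share a three-fingered fold, and most are held on the outer cell surface by a glycosylphosphatidylinositol (GPI) anchor. Immunologists use them as markers of blood cell types, although several are also made by epithelia. Ly6d marks early cells committed to the B lineage and keratinocytes of stratified epithelium. Ly6a is Sca-1, a marker of haematopoietic stem cells that is also found on endothelium and activated lymphocytes and is induced by interferon. Ly6c1 and Ly6c2 encode the Ly6C antigens, of which Ly6c2 is known from inflammatory monocytes and Ly6c1 from endothelium. Ly6e is a widely expressed, interferon-inducible member with a role in viral infection, Ly6h is best known from brain and Ly6k from testis.

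All 7 members lie on mouse chromosome 15 (mm9 coordinates as deposited). Ly6d is at chr15:74592486-74593997 on the minus strand, and the starts of Ly6k, Ly6e, Ly6a, Ly6c1, Ly6c2 and Ly6h follow at 34.8, 193.0, 232.8, 283.0, 346.1 and 802.7 kb from its start. A window around the annotated start site of Ly6d is shown because Ly6d chose the set. Those of Ly6a and Ly6c2 are shown because they were the most alike among the members and both genes passed the test at day 21. Each runs from 250 bases before to 50 bases from the annotated start site on, read from the mm9 genome (NCBIM37) with GENCODE vM1 start sites. The Ly6d window (chr15:74593948-74594247, minus strand) has its transcribed bases in capitals. The windows of Ly6a (chr15:74828015-74828314) and Ly6c2 (chr15:74942065-74942364), both on the minus strand, have capitals at every base that was not matched in their alignment. Both lie inside the deposited gene spans, which end at 74828318 for Ly6a and 74942379 for Ly6c2. They therefore do not reach the sequence before the deposited start of transcription of these 2 genes.
Ly6d: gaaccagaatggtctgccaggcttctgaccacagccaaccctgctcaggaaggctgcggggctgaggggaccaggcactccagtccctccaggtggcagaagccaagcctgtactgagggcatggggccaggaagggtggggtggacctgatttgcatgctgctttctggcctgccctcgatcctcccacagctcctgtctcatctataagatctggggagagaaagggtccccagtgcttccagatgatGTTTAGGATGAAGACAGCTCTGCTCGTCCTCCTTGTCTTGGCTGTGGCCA
Ly6a: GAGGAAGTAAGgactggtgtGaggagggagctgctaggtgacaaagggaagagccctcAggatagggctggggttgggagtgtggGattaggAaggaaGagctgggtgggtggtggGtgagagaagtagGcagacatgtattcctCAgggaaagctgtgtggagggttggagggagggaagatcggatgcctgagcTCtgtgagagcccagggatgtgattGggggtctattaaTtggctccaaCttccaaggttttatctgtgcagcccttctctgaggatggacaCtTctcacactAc
Ly6c2: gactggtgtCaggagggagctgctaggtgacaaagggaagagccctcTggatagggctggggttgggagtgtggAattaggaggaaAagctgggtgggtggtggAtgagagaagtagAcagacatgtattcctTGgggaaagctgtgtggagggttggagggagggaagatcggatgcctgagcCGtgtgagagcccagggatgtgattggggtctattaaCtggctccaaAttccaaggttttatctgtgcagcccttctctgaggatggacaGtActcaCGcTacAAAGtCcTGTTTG

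The Ly6a and Ly6c2 windows matched at 272 of 313 aligned columns (86.9%). No other pair of members exceeded 52.3%, and Ly6d matched Ly6a at 50.5% and Ly6c2 at 49.2%. The Ly6c1 and Ly6c2 windows matched at 48.3%. Unlike that of Ly6c2, the Ly6c1 window (chr15:74879211-74879510) reaches beyond the deposited gene span, which ends at 74879260. The matches therefore compare unlike parts of the genes and do not rank their promoters. The letters of an interferon-stimulated response element (GAAA, any 2 bases, GAAA), searched like the others on both strands, were in none of the 7 member windows and in 3.84% of 22373 windows of protein-coding genes. TTCNNNGAA, the letters of a STAT site, was in the Ly6k window and in 7.93% of all windows. TGANTCA (AP-1) was in no member window and in 6.79% of all, while TATAAA was in the Ly6c1 window and in 13.4% of all. These counts describe letters in a short window only. For Ly6a and Ly6c2 that window lies inside the deposited gene span, so the sequence upstream of the span was not searched.

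Ly6c1 and Ly6c2 are near copies, which bears on how reads could be assigned to them. Their coding sequences of 396 bases each differed at 9 positions (97.7% the same). The start of each coding sequence, from base 1 to base 150, is shown with the 6 differing bases in capitals.
Ly6c1: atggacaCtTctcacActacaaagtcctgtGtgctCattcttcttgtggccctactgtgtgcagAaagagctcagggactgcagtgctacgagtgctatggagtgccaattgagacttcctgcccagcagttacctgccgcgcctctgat
Ly6c2: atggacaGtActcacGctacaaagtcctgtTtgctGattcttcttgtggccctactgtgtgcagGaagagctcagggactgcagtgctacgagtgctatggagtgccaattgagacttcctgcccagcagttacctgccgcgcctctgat
Of all stretches of 1 read length, 15.1% of those in Ly6c1 transcripts and 16.1% of those in Ly6c2 transcripts were shared between them. Ly6d, Ly6a, Ly6e, Ly6h and Ly6k shared no such stretch with any other protein-coding transcript of the annotation. The division of fragments between Ly6c1 and Ly6c2 is therefore less certain than the level of the other members.

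Levels are FPKM, which divide a gene's fragments by its length and by a factor for the library, so values of different genes can be compared per length. Upper-quartile scaling set that factor, so it need not equal the number of fragments sequenced. The step between low values gave approximate effective depths, which reflect this factor. They were 36000000 to 55600000 fragments for the 11 floxed livers and 24000000 to 31200000 fragments for the knockout. Transcripts of the Y chromosome (Ddx3y, Eif2s3y, Kdm5d and Uty) summed to 51.1 to 66.8 FPKM in 4 libraries, namely day 0 replicate B, day 21 replicate C, day 45 replicate C and knockout replicate C, and to at most 0.061 FPKM in the other 10. Knockout replicate C also stood apart from its group, with a correlation across genes of 0.881 and 0.895 with replicates A and B, which correlated at 0.986 with each other, and of 0.927 to 0.955 with each of the 11 floxed livers. No miR-122 value checks the knockout labels here. No small RNA library is labelled as this germline knockout, and the miR-122 row of the RNA-seq table was at 0 in all 14 livers. Albumin was listed at 0 in every library, which cannot be its level in liver. The other 11 hepatocyte markers, such as Apoa1 and Ttr, summed to 15876 to 38330 FPKM. In the small RNA libraries of the same labels, miR-122 made up 59.2% to 73.3% of listed reads at day 0, 8.22% to 13.2% at day 21, 0.383% to 1.23% at day 45, 4.46% at day 100 and 19.1% at day 200.

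Ly6d went from a scarce to an abundant transcript. Its level was 3.40, 1.68 and 2.62 FPKM in replicates A, B and C of day 0 and 15.3, 19.9 and 29.8 FPKM at day 21. At day 45 it was 263, 707 and 164 FPKM, and it was 733 FPKM at day 100 and 443 FPKM at day 200. No injected liver overlapped with day 0, and no liver of day 45 or later overlapped with day 21. The knockout livers held 277, 493 and 18.3 FPKM, and the low value, in replicate C, lay within the day 21 range. Ordered by mean, the groups were day 0 (2.57 ± 0.862 FPKM, SD, n = 3), day 21 (21.7 ± 7.39, n = 3), knockout (263 ± 238, n = 3), day 45 (378 ± 289, n = 3) and days 100 and 200 (588 ± 205, n = 2). The last 3 of these overlapped with each other. Relative to the day 0 mean these were ratios of 8.44, 102, 147 and 229. In these bulk livers, more cells that make Ly6d and more Ly6d RNA per cell cannot be told apart.

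On the log2(FPKM + 1) scale of the fit, Ly6d at day 45 differed from day 0 by 6.49 (SE 0.92, 95% interval 4.48 to 8.50). That difference was higher than in 99.96% of the 11354 genes tested, and across those genes the median difference was 0.20. The differences at day 21, at days 100 and 200 and in the knockout were 2.65 (SE 0.92), 7.35 (SE 1.03) and 5.31 (SE 0.92). Libraries with and without Y-linked transcripts differed in the size of the rise. Among the libraries with them the ratio to day 0, from 1 liver each, was 17.8 at day 21, 98.0 at day 45 and 10.9 in the knockout, and among those without, from 2 livers each, it was 5.85, 161 and 128. Whether sex has a part in this was not tested, since 1 liver a group carries these transcripts.

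**Figure D1:**
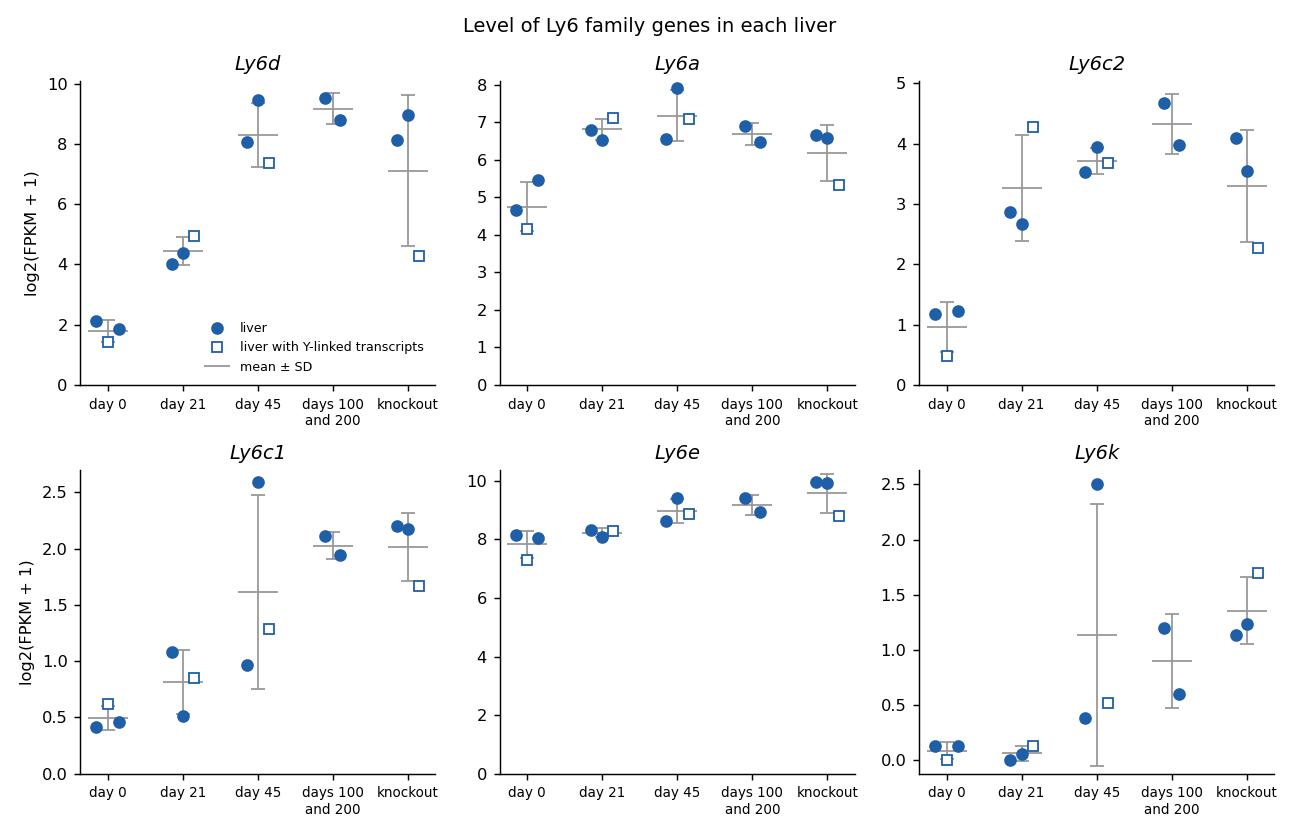
Level of 6 Ly6 family genes in each of the 14 livers, as log2(FPKM + 1), by group. Each point is 1 liver, open squares are the 4 libraries with Y-linked transcripts, and grey bars give the mean ± SD. Ly6d spans from 1.68 FPKM at day 0 to 733 FPKM at day 100, Ly6e is high in every liver, and knockout replicate C is the lowest knockout liver for each gene shown except Ly6k. Ly6h is not drawn because it was listed at 0 in 13 livers.

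Ly6a (Sca-1) was already present at day 0 and was higher in all injected livers. It stood at 24.1, 16.8 and 42.7 FPKM at day 0, at 110, 91.0 and 136 FPKM at day 21 and at 93.0, 239 and 134 FPKM at day 45. The livers of days 100 and 200 had 117 and 87.8 FPKM. No liver of these groups overlapped with day 0, whereas the injected groups overlapped with each other. The knockout livers held 99.3, 95.1 and 39.0 FPKM, so replicate C fell inside the day 0 range. By mean the order was day 0 (27.9 ± 13.4 FPKM, SD, n = 3), knockout (77.8 ± 33.6, n = 3), days 100 and 200 (103 ± 20.8, n = 2), day 21 (112 ± 22.8, n = 3) and day 45 (155 ± 75.2, n = 3).

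Ly6c2 was low at day 0 with 1.25, 0.399 and 1.34 FPKM. It reached 6.27, 5.37 and 18.3 FPKM at day 21, 10.5, 14.4 and 11.8 FPKM at day 45, and 24.6 and 14.7 FPKM at days 100 and 200. The knockout livers held 16.0, 10.7 and 3.84 FPKM. Every group lay above all 3 day 0 livers, and the 4 groups overlapped with at least 1 other group. The group means of Ly6c2 were 0.996 ± 0.519 FPKM at day 0, 9.99 ± 7.24 at day 21, 10.2 ± 6.11 in the knockout, 12.2 ± 1.97 at day 45 (n = 3 each) and 19.6 ± 6.97 at days 100 and 200 (n = 2). Day 21 replicate C, a library with Y-linked transcripts, was the highest of its group for Ly6d, Ly6a and Ly6c2. The ratio of Ly6c2 at day 21 to day 0 was 45.9 between the libraries with Y-linked transcripts and 4.49 between those without.

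Ly6e was the most abundant member at day 0 and stayed high in all livers. Its level was 282, 156 and 266 FPKM at day 0 and 322, 269 and 312 FPKM at day 21, and these groups overlapped. At day 45 it was 391, 681 and 461 FPKM, at days 100 and 200 it was 687 and 493 FPKM, and in the knockout it was 995, 981 and 445 FPKM. The livers of day 45, of days 100 and 200 and of the knockout lay above those of days 0 and 21. The group means rose in the order day 0 (234 ± 68.7 FPKM, n = 3), day 21 (301 ± 28.1, n = 3), day 45 (511 ± 151, n = 3), days 100 and 200 (590 ± 138, n = 2) and knockout (807 ± 314, n = 3). Per length, the Ly6d level was below that of Ly6e in each of the 3 day 0 livers, and at days 100 and 200 their means were 588 and 590 FPKM.

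Ly6c1 stayed low throughout. It was 0.332, 0.533 and 0.379 FPKM at day 0 and 1.11, 0.430 and 0.802 FPKM at day 21, with overlap between them. It was 0.952, 5.03 and 1.43 FPKM at day 45, 3.32 and 2.84 FPKM at days 100 and 200, and 3.60, 3.53 and 2.18 FPKM in the knockout. All livers of those 3 groups lay above day 0. Day 45 replicate B was the highest of the 14 livers for Ly6c1, Ly6a and Ly6k.

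Ly6k and Ly6h did not reach a mean of 1 FPKM over the 14 livers and were left out of the fit. Ly6k stood at 0.095, 0 and 0.098 FPKM at day 0 and 0, 0.042 and 0.098 FPKM at day 21, which is about 1 to 3 fragments where it was above 0. It was 0.302, 4.68 and 0.434 FPKM at day 45, 1.30 and 0.515 FPKM at days 100 and 200, and 1.20, 1.35 and 2.25 FPKM in the knockout. The livers of these later groups and of the knockout did not overlap with days 0 and 21. In exact two-sided permutation tests on log2(FPKM + 1), the knockout differed from day 0 by 1.27 (p = 0.1) and days 100 and 200 differed from day 0 by 0.81 (p = 0.1), each at the smallest p that the design allows, and day 21 differed by -0.02 (p = 1). Ly6h was listed at 0 in 13 livers and at 0.076 FPKM in knockout replicate A.

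Day 21 against day 0 asked which members had moved while miR-122 was falling. Ly6a rose by 2.06 on the log2 scale (SE 0.43, adjusted p = 0.0137) and Ly6c2 by 2.31 (SE 0.47, adjusted p = 0.0132), while Ly6e differed by 0.40 (SE 0.33, adjusted p = 0.555) and Ly6c1 by 0.32 (SE 0.33, adjusted p = 0.662). These p-values come from limma with Benjamini-Hochberg adjustment over 11354 genes. Over all genes tested, 6.20% were called higher and 1.42% lower, with a median difference of 0.06 (704 and 161 genes, and 473 and 198 with each library centred on its median). With 1 liver left out the share called higher ran from 1.74% (without day 0 replicate B) to 4.52%, and that called lower from 0.361% to 1.26%. Ly6c1 and Ly6c2 have a day 0 mean under 1 FPKM and entered the fit only through the groups in which they are high, so the number of members called is not itself a result. The calls rest on single livers. Without day 0 replicate B or without day 21 replicate C neither gene passed (Ly6a 1.76 and 1.91, adjusted p = 0.0669 and 0.0659, Ly6c2 2.07 and 1.81, adjusted p = 0.063 and 0.0567), and Ly6a was also lost without day 0 replicate A (2.01, adjusted p = 0.056) or without the 4 libraries with Y-linked transcripts (1.61, adjusted p = 0.0501), in a range of 0.0105 to 0.0669 for Ly6a and 0.0068 to 0.063 for Ly6c2 over all alternatives.

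At days 100 and 200 the other 4 tested members were higher than at day 0. Ly6c2 rose by 3.36 (SE 0.53, adjusted p = 0.000596), Ly6a by 1.93 (SE 0.48, adjusted p = 0.00846), Ly6c1 by 1.53 (SE 0.37, adjusted p = 0.00788) and Ly6e by 1.36 (SE 0.37, adjusted p = 0.0151). In this comparison 28.4% of all genes tested were called higher and 3.21% lower, and the median gene differed by 0.31, with 3227 and 365 genes called, and 1530 and 1316 after centring. Without the day 100 liver these shares were 13.7% and 0.617%, and without any other 1 liver 21.8% to 24.5% and 2.15% to 2.43%. Ly6e and Ly6a stood at the 89.64th and 95.68th percentile of all differences and Ly6c2 at the 99.45th. Ly6e was not called when each library was centred on its median (0.93, adjusted p = 0.0931, in a range of 0.00745 to 0.159 over its alternatives) or without day 0 replicate B (1.09). Without the day 100 liver the differences were 3.01 for Ly6c2, which passed (adjusted p = 0.0141), and 1.72, 1.44 and 1.12 for Ly6a, Ly6c1 and Ly6e, which did not (adjusted p = 0.0916, 0.074 and 0.159). With 1 late liver left, its spread is taken from the other groups.

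The knockout livers had higher levels of the same 4 genes than day 0. Ly6c2 rose by 2.34 (SE 0.47, adjusted p = 0.00406), Ly6e by 1.74 (SE 0.33, adjusted p = 0.00325), Ly6c1 by 1.52 (SE 0.33, adjusted p = 0.00622) and Ly6a by 1.44 (SE 0.43, adjusted p = 0.0236). Of all genes tested, 19.3% were called higher and 14.5% lower, with a median difference of 0.02. These shares turn on single livers, with 31.7% and 30.7% without knockout replicate C, 9.47% and 4.89% without knockout replicate B, 11.8% and 5.65% without knockout replicate A, 11.8% and 7.05% without day 0 replicate B, and 14.5% and 7.87% without day 0 replicate C. The Ly6a call was lost in several alternatives, among them those without knockout replicate A (1.20, adjusted p = 0.0966) or without day 0 replicate B (1.14, adjusted p = 0.0969), in a range of 0.00166 to 0.102, whereas those of Ly6c2, Ly6c1 and Ly6e passed in every alternative run. Without knockout replicate C the differences were 2.86 for Ly6c2, 2.12 for Ly6e, 1.69 for Ly6c1, 1.87 for Ly6a and 6.73 for Ly6d. All comparisons with day 0 share the same 3 uninjected livers.

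Later livers were set against day 21 to see whether the members still differed after that day, which also allowed a test of Ly6d. Ly6d was higher at days 100 and 200 than at day 21 by 4.70 (SE 1.03, 95% interval 2.46 to 6.95, adjusted p = 0.0132), and it exceeded 99.94% of all genes in this difference. Among all genes 12.1% were called higher and 0.625% lower, with a median difference of 0.26 (1370 and 71 genes, and 423 and 150 after centring). Without the day 100 liver 1.08% were higher and 0.106% lower, and without day 200 or day 21 replicates A, B or C 5.11%, 8.52%, 4.92% and 6.75% were higher. Ly6c1 (1.21, adjusted p = 0.0513), Ly6c2 (1.06, adjusted p = 0.207) and Ly6e (0.95, adjusted p = 0.113) did not pass, and Ly6a differed by -0.13 (95% interval -1.16 to 0.91, adjusted p = 0.895). Ly6c1 was called in 4 of 14 alternatives (adjusted p from 0.00896 to 0.296), Ly6e in 2 (0.0245 to 0.52) and Ly6c2 in 1 (0.00578 to 0.684). With either late liver alone, its spread taken from the other groups, Ly6d differed by a similar amount and no longer passed (4.34 without day 100, adjusted p = 0.14, and 5.07 without day 200, adjusted p = 0.0539, in a range of 0.000762 to 0.14).

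Between the knockout and day 21, Ly6e was higher by 1.33 (SE 0.33, adjusted p = 0.0242) and Ly6c1 by 1.20 (SE 0.33, adjusted p = 0.0329). Ly6d differed by 2.66 (SE 0.92, adjusted p = 0.0558), Ly6c2 by 0.03 (95% interval -0.99 to 1.06, adjusted p = 0.963) and Ly6a by -0.62 (95% interval -1.55 to 0.30, adjusted p = 0.266). Of all genes tested 9.05% were called higher and 10.9% lower, with a median difference of -0.05 (1028 and 1239 genes, 1400 and 1143 after centring, and 847 and 1768 when libraries were rescaled to the same total). Without knockout replicate C the shares were 27.5% and 33.5%, and without any other 1 liver 1.62% to 3.91% and 1.59% to 3.31%. The Ly6d value turned on knockout replicate C, without which the difference was 4.08 (adjusted p = 6.79e-05, in a range of 6.79e-05 to 0.221 over its alternatives). Without the 4 libraries with Y-linked transcripts, Ly6d (4.33) and Ly6c2 (1.05) also passed, while the calls of Ly6e and Ly6c1 were each lost without any 1 of day 21 replicates A, B or C or knockout replicates A or B. No member passed with the replicate letter as a block or with only the 2 compared groups in the fit.

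**Figure D2:**
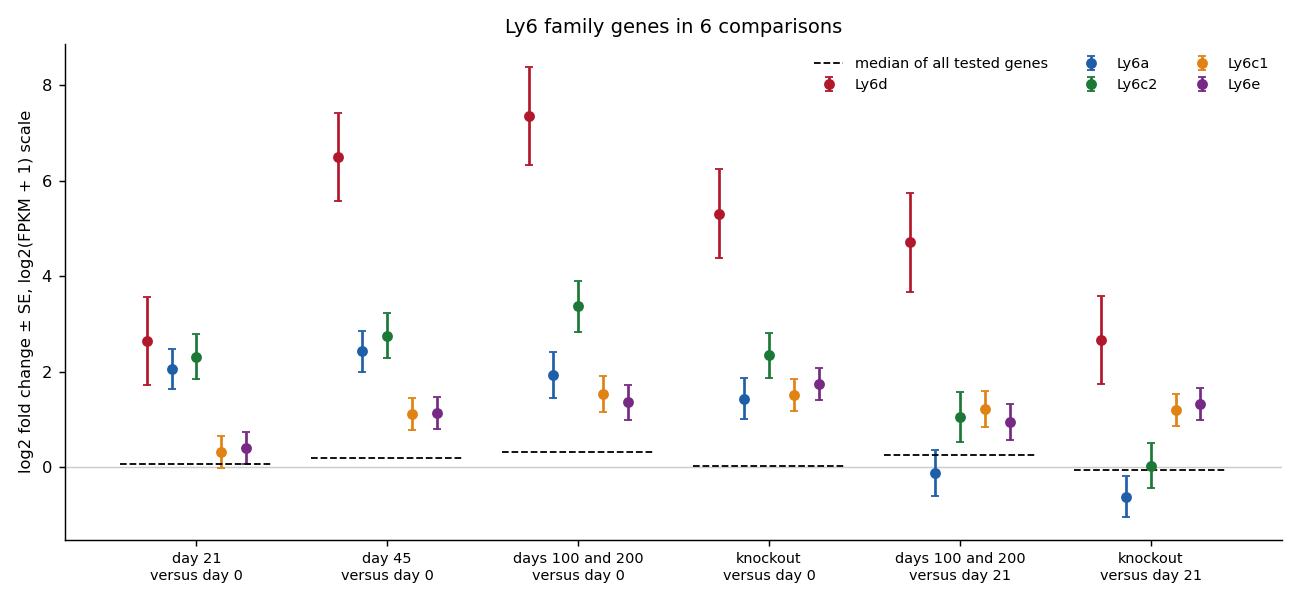
Difference of the 5 tested Ly6 family genes in 6 comparisons, on the log2(FPKM + 1) scale, with the SE of the limma fit. Dashed lines give the median of all 11354 genes tested. Ly6d has the highest value in every comparison (6.49 at day 45), and the values at day 45 and all values of Ly6d relative to day 0 are a description, since Ly6d at day 45 chose the set.

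Genes next to the members were looked at in the same way. Of 39 listed genes that start within 500 kb of a member, 18 were tested. None was called at day 21 against day 0 (limma, 2 with an unadjusted p under 0.05), and 4 were called higher at day 45, where 23.7% of all genes were called higher and 2.99% lower (2688 and 339 genes, and 1401 and 928 after centring). Without day 45 replicate B these shares were 14.4% and 1.28%. At days 100 and 200 and in the knockout 5 of 18 (27.8%) were called higher than day 0 and none lower, beside 28.4% and 19.3% of all genes called higher, so the count at days 100 and 200 is at the level of all genes. Without the 4 libraries with Y-linked transcripts 7 were higher and 3 lower at days 100 and 200, and 9 were higher and none lower in the knockout. In that setting 33.9% and 28.6% of all genes were called higher and 5.68% and 28.8% lower, where those 7 and 3 are 38.9% and 16.7% of the neighbours tested. The 2 neighbours with the greatest differences at days 100 and 200 and in the knockout were the tested ones closest to Ly6d. Lynx1, a Ly6/uPAR gene whose protein modulates nicotinic acetylcholine receptors, starts 14.2 kb before Ly6d and had 0.365 to 0.620 FPKM at day 0, 0.917 to 1.23 at day 21, 2.49 to 5.44 at day 45, 6.17 to 8.89 at days 100 and 200 and 1.56 to 6.62 in the knockout. It rose by 2.51 at days 100 and 200 (SE 0.39, adjusted p = 0.000549) and by 1.77 in the knockout (SE 0.34, adjusted p = 0.00346). With a day 0 mean of 0.484 FPKM, Lynx1 entered the fit only through the groups in which it is high. The uncharacterised gene 4930572J05Rik, 40.8 kb before Ly6d, had 1.44 to 2.11 FPKM at day 0 and 7.68 to 9.18 FPKM at days 100 and 200, and it rose by 1.74 there (SE 0.27, adjusted p = 0.000627) and by 1.77 in the knockout (SE 0.25, adjusted p = 0.000496).

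The other neighbours moved less. Fam83h rose by 0.72 at days 100 and 200 (adjusted p = 0.0342) and by 0.79 in the knockout (adjusted p = 0.0141). Pycrl, an enzyme of proline synthesis, rose by 0.65 in the knockout (adjusted p = 0.0269). 2410075B13Rik rose by 0.57 at days 100 and 200 (adjusted p = 0.0086). Gpihbp1, the Ly6/uPAR protein that carries lipoprotein lipase across capillary endothelium, rose by 0.61 in the knockout (adjusted p = 0.0295) and had 25.8 to 29.4 FPKM at day 0. Between Ly6d and Ly6e, the genes Gml, Hemt1, Cyp11b1, Cyp11b2, D730001G18Rik and 2010109I03Rik all stayed under a mean of 1 FPKM and were not tested. 9030619P08Rik, between Ly6f and Ly6h, had the largest mean of all neighbours (76.6 FPKM) and passed in no comparison. Its level ran from 6.68 to 126 FPKM within day 0 alone.

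**Figure D3:**
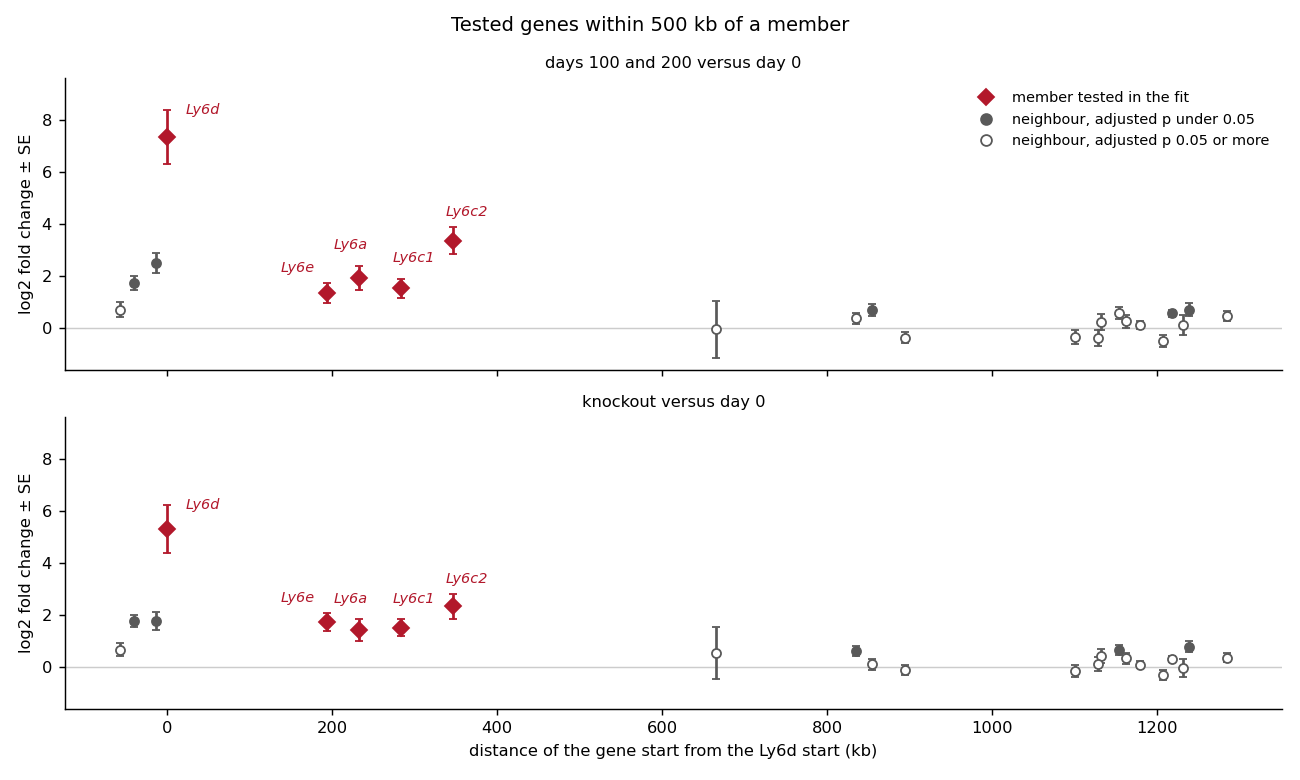
Difference from day 0 of the tested genes within 500 kb of a Ly6 family gene, for days 100 and 200 (top) and the knockout (bottom), against the distance of each gene's start from that of Ly6d in kb. Diamonds are members, filled circles are neighbours with an adjusted p under 0.05, open circles the others, and bars are the SE. Ly6d (7.35 and 5.31) stands above all others, with Lynx1 (2.51 and 1.77) 14.2 kb away.

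Other genes of the Ly6/uPAR superfamily were called in both directions. Of 28 in the table besides the members, 9 are among the neighbours already described. Of the 28, 5 were tested, 2 of them the neighbours Lynx1 and Gpihbp1, and 19 were under 1 FPKM in every liver. The summed level of all 28 was 79.1 to 94.0 FPKM at day 0 and 85.3 to 93.4 FPKM at days 100 and 200. Plaur, the urokinase receptor, was 0.318 to 0.404 FPKM at day 0 and 3.47 to 4.59 FPKM at days 100 and 200, and it rose by 1.88 there (SE 0.40, adjusted p = 0.00379) and by 1.63 in the knockout (SE 0.36, adjusted p = 0.00652). Plaur, with a day 0 mean of 0.360 FPKM, also entered the fit only through the groups in which it is high. Cd59a, an inhibitor of the complement attack complex, fell from 47.4 to 62.4 FPKM at day 0 to 16.4 to 33.1 FPKM in the knockout (-1.28, SE 0.23, adjusted p = 0.00218). Cd59b fell in the knockout (-0.95, SE 0.17, adjusted p = 0.00251) and at days 100 and 200 (-0.98, SE 0.20, adjusted p = 0.00249).

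Genes that make and attach GPI anchors were called in both directions. Of 29 tested genes of 30, 1 was called higher and 2 lower at day 21, 5 and 2 at day 45, 9 and 2 at days 100 and 200, and 8 and 6 in the knockout, all against day 0. The shares called higher were 3.45%, 17.2%, 31.0% and 27.6%, beside 6.20%, 23.7%, 28.4% and 19.3% of all genes. The shares called lower were 6.90%, 6.90%, 6.90% and 20.7%, beside 1.42%, 2.99%, 3.21% and 14.5% of all genes. The median of the list at days 100 and 200 was 0.39, beside 0.31 for all genes. Gpld1, a phospholipase that releases GPI-anchored proteins, fell by 0.49 at days 100 and 200 (adjusted p = 0.0401). Dpm3 and Dpm2, subunits of the dolichol-phosphate mannose synthase, had means of 42.3 and 29.7 FPKM at day 0, 18.7 and 27.0 FPKM at day 21 and 47.0 and 33.3 FPKM at days 100 and 200. Neither passed at day 21 (adjusted p = 0.166 and 0.783).

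Interferon-stimulated genes were examined because Ly6a, Ly6c2 and Ly6e respond to interferon. Of 36 tested, 10 were called higher and none lower at day 21, 24 and none at day 45, 11 and none at days 100 and 200, and 6 higher and 1 lower in the knockout, each against day 0. The shares called higher were 27.8%, 66.7%, 30.6% and 16.7%, of which the last 2 are near those of all genes (28.4% and 19.3%). The medians of the list were 0.90, 1.11, 0.75 and 0.36, and those of all genes 0.06, 0.20, 0.31 and 0.02. Psmb8, an interferon-induced proteasome subunit, rose by 1.36 at days 100 and 200 (adjusted p = 0.029) and by 1.41 in the knockout (adjusted p = 0.0162). Bst2, which tethers budding virus, passed in none of the comparisons given here with day 0 or day 21 (0.08 at day 21, adjusted p = 0.938). Iigp1, an interferon-induced GTPase, fell in the knockout by 2.16 (adjusted p = 0.00802). Against day 21, 10 of the 36 (27.8%) were called lower in the knockout and none higher, beside 10.9% of all genes lower and 9.05% higher. Without the 4 libraries with Y-linked transcripts, which include knockout replicate C, 11 were lower and 6 higher against day 21, and 3 lower and 13 higher against day 0. In that setting 32.6% of all genes were lower and 25.6% higher against day 21, and 28.8% lower and 28.6% higher against day 0. Their summed level was 639 to 993 FPKM at day 0, 1298 to 2118 at day 21, 1260 to 1602 at day 45, 992 to 1293 at days 100 and 200 and 652 to 1150 in the knockout.

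Markers of other cells that carry Ly6 proteins were also measured, and their part in the members' levels was not tested. Counts of called markers against day 0 are to be read beside the 6.20%, 23.7%, 28.4% and 19.3% of all genes called higher at day 21, day 45, days 100 and 200 and in the knockout, and several scarce markers entered the fit only through the groups in which they are high. Without the 4 libraries with Y-linked transcripts the shares of all genes called higher were 4.24%, 24.7%, 33.9% and 28.6%. For Ly6d these are the B lineage and squamous epithelium. B lineage markers summed to 3.41 to 7.45 FPKM at day 0, 15.3 to 28.1 at day 21, 19.8 to 29.3 at day 45, 25.9 to 31.1 at days 100 and 200 and 13.04 to 25.5 in the knockout. Of 7 tested, 6 were called higher at day 21, 7 at day 45, 7 at days 100 and 200 and 2 in the knockout. Without the 4 libraries with Y-linked transcripts 0 of 7 were called at day 21 (limma, all 7 with an unadjusted p under 0.05), 7 at day 45, 7 at days 100 and 200 and 3 in the knockout. Cd79a, a subunit of the B cell receptor, had group means of 0.642, 2.25, 2.79, 2.38 and 1.26 FPKM for day 0, day 21, day 45, days 100 and 200 and the knockout, and Blnk and Cd79b, signalling proteins of that receptor, had 10.2 and 5.40 FPKM at days 100 and 200. Blnk had the largest mean of the list over the 14 livers. It rose from 0.790 FPKM at day 0 to 10.21 FPKM in the knockout, and Cd79b from 1.965 to 4.795 FPKM. The squamous markers summed to at most 1.45 FPKM at day 0 and to 34.7 and 69.0 FPKM at days 200 and 100, and 10 of the 12 were under 1 FPKM in every liver. Sprr1a, a cornified envelope protein that was the only one tested, made up most of that, with 0.031 FPKM at day 0, 50.2 FPKM at days 100 and 200 and 32.9 FPKM in the knockout, a rise of 5.55 (SE 0.78, adjusted p = 0.000336) and of 4.55 (SE 0.70, adjusted p = 0.000938). With 0.879 FPKM at day 21 as well, Sprr1a entered the fit only through the later groups and the knockout, in which it is high. Krt6a was at 0 in all livers, Krt10 had means of 0.511 FPKM at day 0, 0.416 at days 100 and 200 and 0.370 in the knockout, and Sbsn had a mean over all livers of 0.883 FPKM.

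For Ly6a and the Ly6C genes the cells are endothelium, monocytes and other leukocytes. Monocyte markers summed to 16.5 to 36.0 FPKM at day 0, 69.1 to 118 at day 21, 87.5 to 137 at day 45, 124 to 156 at days 100 and 200 and 77.0 to 182 in the knockout, and 4, 6, 5 and 5 of 6 tested were called higher than day 0 (2, 5, 5 and 3 without the libraries with Y-linked transcripts). Plac8, the most abundant, rose by 1.59 at day 21 (adjusted p = 0.0252), and the chemokine receptors Ccr2 and Cx3cr1 went from 0.625 and 0.211 FPKM at day 0 to 11.95 and 11.8 FPKM at days 100 and 200. Neutrophil markers summed to 5.10 to 20.5 FPKM at day 0, 45.7 to 143 at day 21, 46.4 to 88.0 at day 45, 111 to 200 at days 100 and 200 and 33.8 to 184 in the knockout, with S100a8 (5.31 and 78.5 FPKM at day 0 and at days 100 and 200), S100a9 (4.87 and 60.9) and Retnlg (0.745 and 7.96) in front. Day 21 replicate C, the highest of its group for Ly6c2, also had the highest monocyte (118 FPKM), neutrophil (143 FPKM) and interferon-stimulated (2118 FPKM) sums of day 21, and it was the highest day 21 liver in 11 of the 15 gene lists. Day 45 replicate B, the highest of its group for Ly6d, was the highest day 45 liver in 11 lists and day 45 replicate A the lowest in 12, and day 0 replicate B was the lowest day 0 liver in 11. Knockout replicate C, the lowest of its group for Ly6c2, was the lowest knockout liver in 13 of these 15 lists, all but those of hepatocytes and of stellate cells and fibroblasts, with monocyte and neutrophil sums of 77.0 and 33.8 FPKM.

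Endothelial markers were called higher in 1, 7, 8 and 2 of 13 at day 21, day 45, days 100 and 200 and in the knockout, and in the knockout 1 was lower. The shares called higher, 7.69%, 53.8%, 61.5% and 15.4%, were near those of all genes at day 21 and below them in the knockout. Without the libraries with Y-linked transcripts 0 were called at day 21 (limma, 5 with an unadjusted p under 0.05), and 5 were higher and 2 lower in the knockout. Their sum was 129 to 197 FPKM at day 0, 273 to 289 at days 100 and 200 and 127 to 180 in the knockout, with Clec4g, Egfl7 and Eng at means over the 14 livers of 86.6, 26.2 and 25.1 FPKM. Ly6c1, known from endothelium, was above day 0 in all 3 knockout livers. The endothelial sum of the knockout overlapped with that of day 0. Clec4g, its most abundant gene, had means of 79.6 FPKM at day 0 and 43.2 FPKM in the knockout. Egfl7 and Eng went the other way, from 16.2 and 15.0 FPKM to 29.9 and 26.9 FPKM. The part of endothelium in the Ly6c1 level was not tested. T cell markers were higher in 6, 7, 8 and 6 of 9 in that order. Thy1, itself a GPI-anchored protein, Cd3g and Lck had day 0 means of 1.10, 1.10 and 0.606 FPKM and means of 8.80, 6.52 and 4.03 FPKM at days 100 and 200. Of 3 plasma cell markers tested, 2, 2, 2 and 1 were higher. Their list summed to 25.6, 18.8 and 154 FPKM in day 21 replicates A, B and C, so replicate C carries the day 21 mean. Igj rose by 4.19 at day 21 (adjusted p = 0.00475), with 17.7, 13.7 and 112 FPKM in these livers and a day 0 mean of 0.736 FPKM, and it entered the fit only through the groups in which it is high. 2010001M09Rik had 3.62, 2.13 and 33.9 FPKM in them and a day 0 mean of 0.243 FPKM, and Derl3 had 3.14, 1.98 and 3.86 FPKM and a day 0 mean of 1.99 FPKM.

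Markers of resident liver cells were counted in the same order. Kupffer cell markers, among them C1qb, C1qa and Cd5l with means of 78.3, 60.5 and 91.5 FPKM at day 0 and 240, 170 and 116 FPKM at days 100 and 200, were called higher in 2, 9, 2 and 1 of 9, shares that at days 100 and 200 (22.2%) and in the knockout (11.1%) lay below those of all genes. At day 21 the calls of Kupffer, stellate and cholangiocyte markers were all lost without the libraries with Y-linked transcripts (limma, 0 called, and 6, 6 and 2 with an unadjusted p under 0.05). In that setting Kupffer calls were 4 at days 100 and 200 and 3 in the knockout. Stellate and fibroblast markers were higher in 2, 10, 9 and 6 of 10, with Dcn, Lum and Col3a1 at 390, 128 and 67.1 FPKM at days 100 and 200. Cholangiocyte markers were called higher in 2 of 8 at day 21 and in 8 of 8 at day 45, at days 100 and 200 and in the knockout. They summed to 48.3 to 61.7 FPKM at day 0, 142 to 207 at day 21, 419 to 1382 at day 45, 1964 to 2980 at days 100 and 200 and 567 to 860 in the knockout. Spp1 (osteopontin) rose by 5.60 at days 100 and 200 (adjusted p = 1.18e-05), Epcam by 3.74 (adjusted p = 7.14e-05), and Prom1 went from a mean of 1.19 to 27.8 FPKM. The sum is mostly Spp1, which had means of 46.9 FPKM at day 0 and 2360 FPKM at days 100 and 200 and made up 84.5% to 96.2% of it, while the other cholangiocyte markers together had 4.65 to 7.43 FPKM at day 0 and 109.8 to 114 FPKM at days 100 and 200. Hepatocyte markers were called in 0, 0, 1 and 1 of 11 as lower and in 0, 0, 0 and 1 as higher (limma, with an unadjusted p under 0.05 in 1, 1, 3 and 3), with Apoa1, Ttr and Cyp2e1 at 6532, 6986 and 3427 FPKM at days 100 and 200 and 12214, 8595 and 5278 FPKM at day 0.

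**Figure D4:**
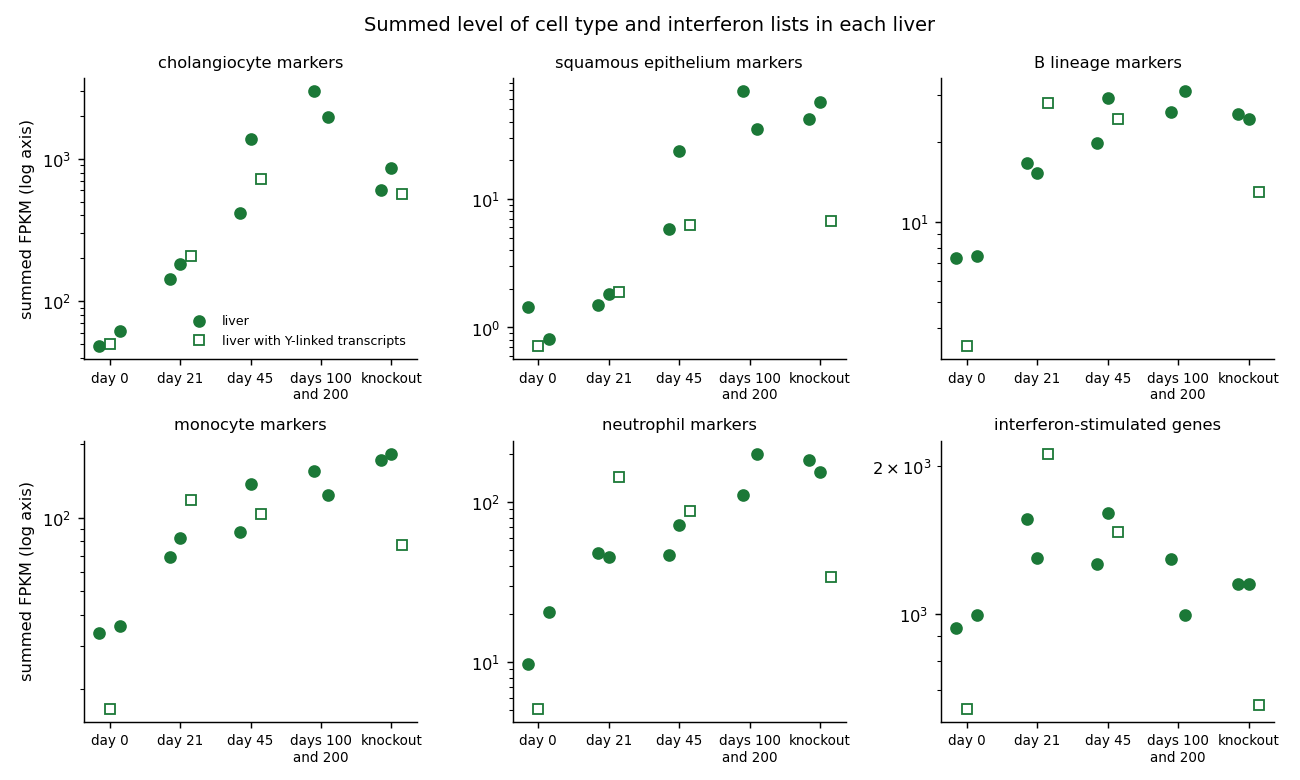
Summed FPKM of 6 gene lists in each liver, on log axes. Each point is 1 liver and open squares are the 4 libraries with Y-linked transcripts. The cholangiocyte sum, which is mostly Spp1, runs from 48.3 FPKM at day 0 to 2980 FPKM at day 100, the squamous sum stays under 1.5 FPKM at day 0 and reaches 69.0 FPKM at day 100, and the interferon-stimulated sum is highest at day 21 (2118 FPKM).

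The tested members resembled each other to different degrees over the livers, and no difference between their profiles was tested. Pearson's r of log2(FPKM + 1) over the 14 livers was positive for every pair. It was highest between Ly6c1 and Ly6e (0.891) and lowest between Ly6a and Ly6c1 (0.573). Between Ly6d and Ly6c2 and between Ly6a and Ly6c2 it was 0.885. These livers share groups and depth, so the values describe likeness only. The 10 genes most like Ly6d were Gnai2 (r = 0.984), a G protein subunit, Efemp2 (0.983) and Mxra8 (0.979) of the extracellular matrix and cell surface, Efcab4a (0.979), Sepn1 (0.979), the metalloproteinase Adam15 (0.977), Ppp1r9b (0.976), the matrix protein Adamtsl2 (0.976), Ngfrap1 (0.975) and the kinase Mapk7 (0.975). Gnai2 went from a mean of 41.9 FPKM at day 0 to 113 FPKM at days 100 and 200 and Adamtsl2 from 2.29 to 33.6 FPKM, less than Ly6d. Nearest to Ly6a were the leukocyte receptors Cd300a (0.967) and Fcgr1 (0.964) and the cholesterol transporter Abcg1 (0.957), and nearest to Ly6c2 were Cyth4 (0.98), Sirpa (0.98) and Cd52 (0.976), all 3 known from leukocytes. Ly6c1 was closest to Gpr56 (0.964) and the epithelial genes Cldn4 (0.96) and Mapk13 (0.96), and Ly6e to Cyp4f16 (0.984), Rcn3 (0.975) and Crip1 (0.975).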

How the data were processed

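RNA-seq of poly-A RNA from 14 livers was used, with small RNA libraries of the same labels for miR-122 alone. The authors aligned paired reads to mm9 with TopHat and deposited FPKM from Cufflinks 2.2.1, with upper-quartile scaling, after taking out ribosomal, snoRNA and mitochondrial reads. How Cufflinks divided fragments shared by Ly6c1 and Ly6c2 is not given in the sources used here. For microRNAs the authors deposited RPM with 1 added (Bowtie 0.12.7), and the 1 was removed. Versions are from the submitters' processing notes where printed.

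Where a symbol had several rows (224 symbols), the rows were added up. limma 3.58.1 (R 4.3.3; lmFit, contrasts, eBayes with trend) was run on log2(FPKM + 1) for all 5 groups together, keeping the 11354 genes whose mean reached 1 FPKM, with Benjamini-Hochberg adjustment within each comparison and a threshold of 0.05. Differences on this scale understate changes of low genes. p-values measure the spread between these livers. The fit was also run on simulated data, the outcome of which is not given here. FPKM hold no fragment numbers, so no count model was used and the effective depths given are approximate. Members and lists were chosen with earlier results of these data known. Named genes are the members, the called relatives and neighbours (at most 6 of each with the largest mean), the 10 genes most like Ly6d and 3 most like each other tested member, and the 3 most abundant genes of each list. Alternatives changed the pseudocount, filter, scaling, handling of repeated symbols, groups in the fit, replicate block and single livers, and the 2 that concern Y-linked transcripts, and the counts of lists and neighbours under each alternative, were added after seeing the data.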

Additional observations from a re-analysis of the deposited data

Results flagged for a closer look

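The test of the later livers against day 21 is also a test of whether their differences from day 0 are unequal. By that test the rise of Ly6d at days 100 and 200 exceeded that at day 21 by 4.70 on the log2 scale (limma, adjusted p = 0.0132, both late livers above all 3 day 21 livers). With the day 200 liver alone it was 4.34 (adjusted p = 0.14) and with the day 100 liver alone 5.07 (adjusted p = 0.0539), neither of them called, where the spread of the single liver is taken from the other groups. The adjusted p ran from 0.000762 to 0.14 over its alternatives. In the knockout the difference from day 0 exceeded that of day 21 by 1.20 for Ly6c1 (limma, adjusted p = 0.0329) and by 1.33 for Ly6e (limma, adjusted p = 0.0242), with all 3 knockout livers above all 3 day 21 livers for each gene. These calls were lost in 8 and 7 of 16 alternatives (adjusted p from 0.00649 to 0.131 for Ly6c1 and from 0.000354 to 0.117 for Ly6e). Ly6c1, with means of 0.415 FPKM at day 0 and 0.782 FPKM at day 21, entered the fit only through the groups in which it is high, which include the knockout, so its p is not independent of how it came to be tested. No group had the 4 livers needed for a test of single outlying values.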

How the results depend on the processing

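The difference of Ly6d at day 45 from day 0 (6.49) ran from 5.90 to 6.95 on the log2 scale with 1 liver left out; it chose the set and is given as a description. The number of called members (main values 2, 4 and 4 for day 21, days 100 and 200 and knockout against day 0, and 1 and 2 for days 100 and 200 and knockout against day 21) ran, with 1 liver left out, from 0 to 2, 1 to 4, 3 to 4, 0 to 1 and 0 to 3. Without the libraries with Y-linked transcripts it was 1 at day 21, and 3 and 4 in the comparisons with day 21. In that setting 4.24% of all genes were called higher and 1.42% lower at day 21. In the comparisons with day 21 these shares were 20.6% and 2.23%, and 25.6% and 32.6%. For days 100 and 200 against day 21 the number of called members was 2 with a pseudocount of 0.1 or 0.5 or with libraries rescaled to 1 total, and 3 with only the 2 groups in the fit. In these settings 10.7%, 11.5%, 15.5% and 21.7% of all genes were called higher and 0.467%, 0.537%, 0.577% and 1.61% lower. For the knockout against day 21 the number of called members was 1 with no filter and 0 with only the 2 groups. There 5.14% and 1.17% of all genes were called higher and 4.45% and 0.731% lower, beside 9.05% and 10.9% in the main fit. The cause of these changes was not tested. Ly6a at days 100 and 200 against day 21 (-0.13) turned to 0.0217 without the libraries with Y-linked transcripts, and ran from -0.33 to 0.0799 with 1 liver left out. Ly6c2 in the knockout against day 21 (0.03) turned to -0.10 on rescaling and ran from -0.36 to 0.55. Neither passed the test in the main fit, and FPKM carry no counts from which the precision of low members such as Ly6k could be had.

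In the order of comparisons given next, 6.20%, 23.7%, 28.4%, 19.3%, 12.1% and 9.05% of all genes were called higher in the main fit. Those called lower were 1.42%, 2.99%, 3.21%, 14.5%, 0.625% and 10.9%. Genes on the lists called in either direction numbered 41, 94, 80 and 67 at day 21, day 45, days 100 and 200 and in the knockout against day 0, and 25 and 41 at days 100 and 200 and in the knockout against day 21. With 1 liver left out these ran from 11 to 34, 59 to 87, 47 to 75, 40 to 94, 5 to 20 and 14 to 80. Centring gave 57 at day 45 and 43 at days 100 and 200, where 12.3% and 13.5% of all genes were called higher and 8.17% and 11.6% lower. Leaving out the libraries with Y-linked transcripts gave 23 list genes at day 21, and 45 and 78 against day 21. In that setting 4.24%, 20.6% and 25.6% of all genes were called higher and 1.42%, 2.23% and 32.6% lower. Fitting only the 2 groups gave 66 list genes at day 21 and 30 in the knockout, and 41 and 8 against day 21. There 12.3%, 7.31%, 21.7% and 1.17% of all genes were called higher and 3.29%, 2.46%, 1.61% and 0.731% lower. Called neighbours numbered 0, 4, 5, 5, 4 and 3 in the same order, and with 1 liver left out 0 to 0, 2 to 4, 2 to 5, 2 to 10, 0 to 4 and 1 to 11. Without the filter they were 9 at days 100 and 200, 9 in the knockout, and 9 and 5 against day 21. All genes called higher were then 30.3%, 15.4%, 15.8% and 5.14%, and those called lower 2.43%, 8.33%, 0.541% and 4.45%. Without the libraries with Y-linked transcripts called neighbours numbered 8, 10 and 9 from day 45 to the knockout, and 8 and 12 against day 21. All genes called higher were then 24.7%, 33.9%, 28.6%, 20.6% and 25.6%, and those called lower 4.74%, 5.68%, 28.8%, 2.23% and 32.6%. With only the 2 groups called neighbours numbered 1 at day 21, 7 at day 45 and 2 in the knockout, and 7 and 0 against day 21. All genes called higher were then 12.3%, 28.9%, 7.31%, 21.7% and 1.17%, and those called lower 3.29%, 5.01%, 2.46%, 1.61% and 0.731%. Y-linked transcripts as a covariate gave 1 called neighbour at day 21 and 5 in the knockout against day 21, and centring gave 2 at days 100 and 200 against day 21. All genes called higher were then 7.09%, 12.7% and 3.73%, and those called lower 1.84%, 16.3% and 1.32%.

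The replicate letters were not treated as pairing the livers, since same-letter deviations correlated over 0.1 in 8 of 18 pairs (-0.447 to 0.501) and in no compared pair of groups for all 3 letters. Between day 21 and day 45, which were not compared, all 3 were over 0.1 (0.272, 0.236 and 0.501 for A, B and C). With the letter as a replicate block, no member passed in the knockout against day 21 (0 called), and list genes called fell to 22 at day 21 against day 0 and to 26 in the knockout against day 21. With that block 3.39% of all genes were called higher and 0.749% lower at day 21. In the knockout against day 21 these shares were 4.18% and 4.42%. The block could not be fitted for days 100 and 200, whose livers carry no letter.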
